A study of Homo sapiens with 9 samples.

Results

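SOD1, SOD2, SOD3, CAT, GPX1, GPX2, GPX3, GPX7 and GPX8 are the genes of 3 superoxide dismutases, catalase and 5 glutathione peroxidases. They were found in the deposited count table by matching its Ensembl gene IDs to these 9 symbols in GENCODE 29, which gave 10 of the table's 58299 entries, since 2 entries share the symbol SOD2. The cells were AC16, a proliferating human line made by fusing adult ventricular heart cells with SV40-transformed fibroblasts. The groups, of 3 libraries each, were CDDO-Me at 100 nM for 72 h, CDDO-Me at 100 nM for 24 h, and DMSO (0.1%, the vehicle) for 72 h, with no genetic change in any of them. CDDO-Me, also called bardoxolone methyl, is a triterpenoid drug that modifies KEAP1 and so lets the transcription factor NRF2 escape breakdown, and the series' title concerns NRF2 and protection from doxorubicin, which no library received. The DMSO libraries are all of 72 h, so treatment and culture time cannot be told apart when the 24 h group is set against them. Between CDDO-Me 72 h and 24 h, length of treatment and culture time cannot be told apart either. Nothing in the labels says that replicates came from separate cultures, and p-values then reflect only how far these libraries differ, which may be technical.

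Superoxide dismutases turn superoxide, which leaks from the respiratory chain and is made by NADPH oxidases, into hydrogen peroxide and oxygen. Hydrogen peroxide is then removed by catalase, a heme enzyme of the peroxisome that needs no cosubstrate, and by peroxidases that draw electrons from glutathione or thioredoxin. In heart muscle, cells rich in mitochondria, this chain is known for its part in limiting oxidative damage, and anthracyclines such as doxorubicin raise superoxide there.

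The glutathione peroxidases fall into 2 classes by the residue at the active site, and the coding sequence around that codon shows the class of each gene. The codon is in capitals below, with 18 bases before it and 15 after it, read from the GENCODE 29 transcripts (GRCh38). TGA is normally a stop codon and is annotated here as selenocysteine, while TGC encodes cysteine.
GPX1: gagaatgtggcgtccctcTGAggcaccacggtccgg
GPX2: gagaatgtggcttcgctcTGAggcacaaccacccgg
GPX3: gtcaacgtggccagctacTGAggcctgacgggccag
GPX7: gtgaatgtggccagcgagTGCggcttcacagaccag
GPX8: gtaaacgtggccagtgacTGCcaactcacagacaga
The codons lie at chr3:49358132-49358134 (minus strand, exon 1 of 2) in GPX1, chr14:64942607-64942609 (minus strand, exon 1 of 2) in GPX2, chr5:151025469-151025471 (plus strand, exon 2 of 5) in GPX3, chr1:52606714-52606716 (plus strand, exon 2 of 3) in GPX7 and chr5:55161024-55161026 (plus strand, exon 2 of 3) in GPX8. GPX1, GPX2 and GPX3 thus depend on selenium and on the recoding of a stop codon, and GPX7 and GPX8, which reside in the endoplasmic reticulum, do not.

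Total counts were 18801683 to 20704953 per library in CDDO-Me 72 h, 16898977 to 27910031 in CDDO-Me 24 h and 19382833 to 20570568 in DMSO. A count of 0 allows up to 3 counts, or 0.107 to 0.178 CPM (counts scaled to a common library total) depending on the library, and such limits cover counting error only. In CDDO-Me 24 h, replicate 3 differed from replicates 1 and 2 by a chi-square of 40.2 and 37.9 per degree of freedom, against 4.98 between those replicates. DMSO replicate 1 stood apart by less, at 14.6 and 18.6 from DMSO replicates 2 and 3, against 8.755 between those. Of 9 cardiac markers, 1 (GATA4) was over 1 CPM in every library, and MYH6, MYH7, NKX2-5, MYL2 and RYR2 had no count in any, so the label of heart muscle rests on few defining transcripts. All 8 fibroblast markers were over 1 CPM in every library, with a summed level of 17354 to 17859 CPM in CDDO-Me 72 h, 12663 to 19139 in CDDO-Me 24 h and 15161 to 16510 in DMSO. The 6 endothelial and immune markers summed to 2.18 to 2.87 CPM in CDDO-Me 72 h, 3.51 to 4.86 in CDDO-Me 24 h and 3.10 to 4.16 in DMSO, so that the 72 h libraries lay below all others. These levels were low, with 0 to 2 of the 6 markers over 1 CPM in any library. At 72 h against DMSO, 0 of the 4 tested markers had an adjusted p under 0.05 in edgeR. In that comparison 15.2% of all tested genes lay below every DMSO library. As a check of the treatment, 4 of 5 standard NRF2 targets were higher in CDDO-Me 72 h than in DMSO (2 on leaving out DMSO replicate 1 or any single 72 h library, and 5 without CDDO-Me 24 h replicate 3). NQO1, a quinone reductase gene, averaged 3348 ± 40.5 CPM in CDDO-Me 72 h, 1879 ± 256 in CDDO-Me 24 h and 449 ± 40.3 in DMSO (SD, n = 3 each).

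In CDDO-Me 72 h against DMSO 1 of the 8 tested genes was called, SOD1, which was 1.34-fold higher than in DMSO (95% interval 1.15 to 1.57). That call held in 13 of 18 alternatives, and a gene without a call may still have changed. CDDO-Me at 24 h against DMSO, and 72 h against 24 h, gave no call among the 8. Of all 14965 tested genes, 6.02% were called in CDDO-Me 72 h against DMSO (2.89% higher, 3.13% lower), 2.15% in CDDO-Me 24 h against DMSO (0.969% higher, 1.18% lower) and 1.02% in CDDO-Me 72 h against 24 h (0.448% higher, 0.568% lower). A call is an adjusted p under 0.05 in edgeR's quasi-likelihood test. At an unadjusted p under 0.05, 2 members stood out at 72 h against DMSO (SOD1 and GPX3), 1 at 24 h against DMSO (SOD1) and 2 at 72 h against 24 h (SOD3 and CAT). DESeq2 and limma-voom also called 0 members at 24 h against DMSO, and between 72 h and 24 h DESeq2 called 1 (SOD3) and limma-voom 0. The median log2 fold change of the 8 genes was 0.11 at 72 h and 0.13 at 24 h against DMSO, beside -0.00 and 0.01 over all tested genes. The remaining gene, GPX2, did not pass the filter on low counts. CPM is a share of the reads of a culture, so a change in the share of cells that express a gene and a change in RNA per cell cannot be told apart.

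**Figure D1:**
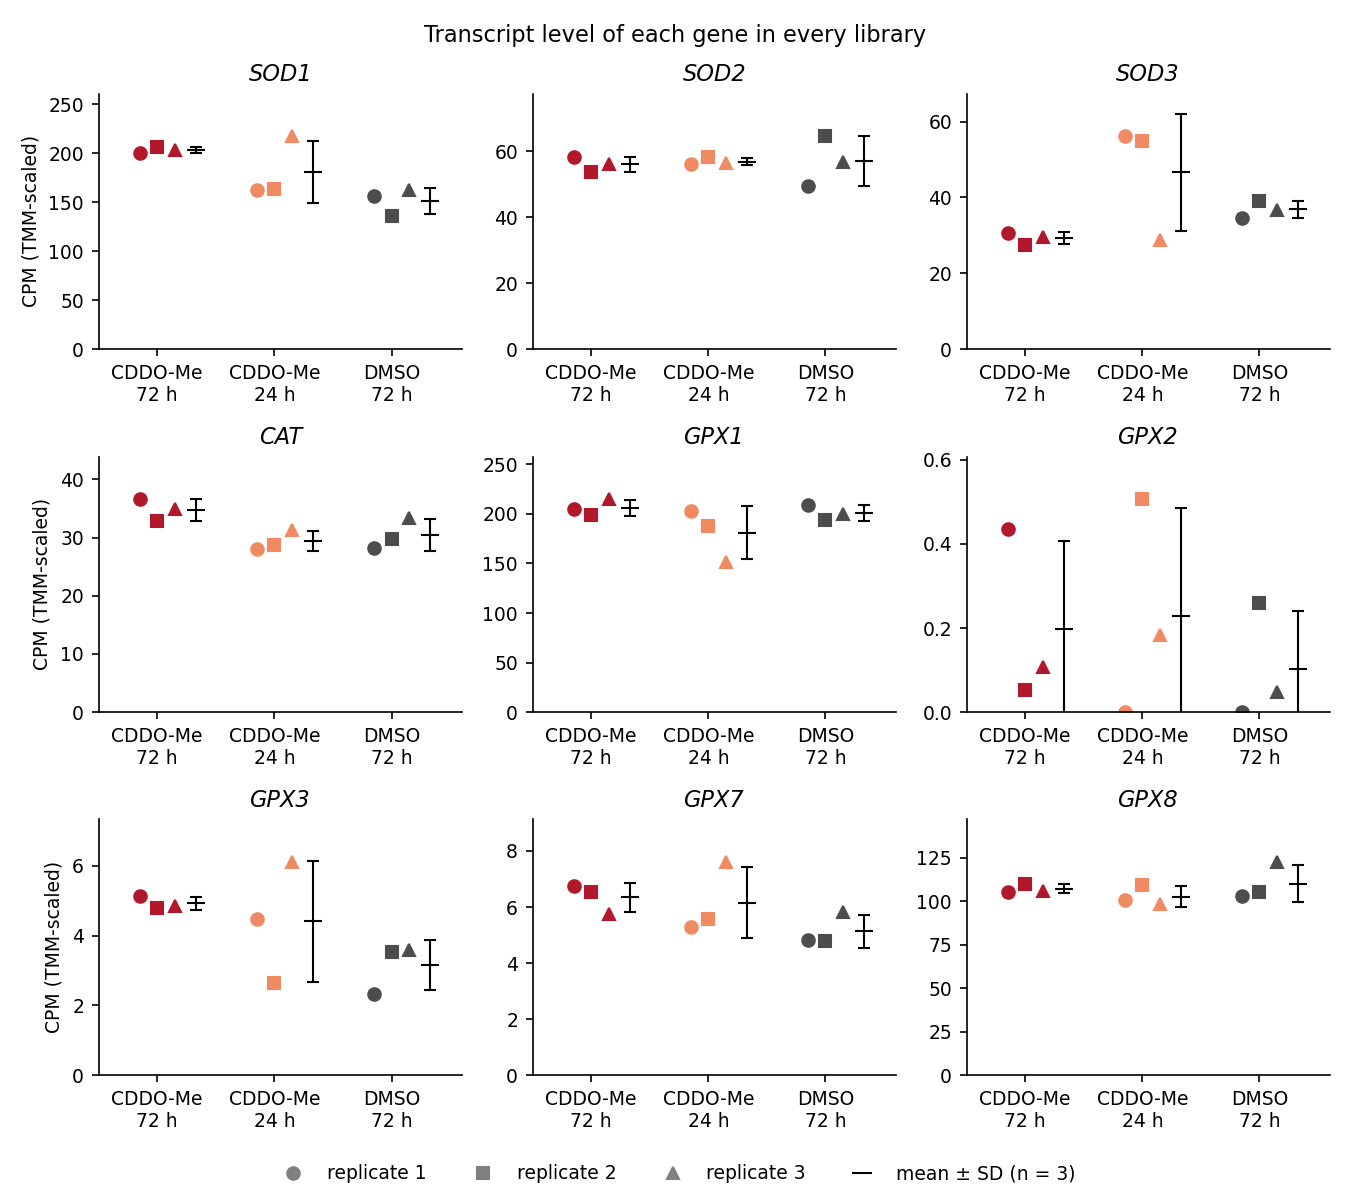
Level of each gene in CPM (library-size scaled, linear axes starting at 0) in CDDO-Me 72 h, CDDO-Me 24 h and DMSO 72 h; each symbol is a library and bars give mean ± SD of 3. SOD1 sits between 200.3 and 207 CPM in CDDO-Me 72 h, above the DMSO libraries at 136 to 162, and SOD1 and SOD3 of CDDO-Me 24 h replicate 3 lie beside the 72 h libraries and not beside the other 24 h libraries.

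SOD1 encodes the copper and zinc enzyme of the cytosol and the space between the mitochondrial membranes (ENSG00000142168, protein-coding, chromosome 21, 31659622 to 31668931, plus strand, GRCh38). Its level was 200.3, 207 and 203 CPM in the CDDO-Me 72 h libraries, 162.25, 163 and 217 in CDDO-Me 24 h, and 156, 136 and 162.05 in DMSO. All 72 h libraries lay above all DMSO libraries, and they varied among themselves by an SD of 3.24 CPM, against 31.6 in CDDO-Me 24 h and 13.6 in DMSO. The log2 fold change of CDDO-Me 72 h over DMSO was 0.43 ± 0.11 (SE, adjusted p 0.0287). For CDDO-Me 24 h over DMSO it was 0.26 ± 0.11 (adjusted p 0.311), where replicates 1 and 2 stood at the upper edge of the DMSO range and replicate 3 stood with the 72 h libraries. Without that replicate the 24 h value was 0.10 (adjusted p 0.423), and SOD1 then differed between 72 h and 24 h of CDDO-Me (0.32, adjusted p 0.00909). The replicate is singled out after its SOD1 level was seen, so this call is not separate support for a difference. The 72 h call against DMSO ended when DMSO replicate 1 or 2 was left out (adjusted p 0.0621 and 0.156) or when any 1 of the 72 h libraries was left out (adjusted p 0.0981 to 0.119), while the log2 fold change stayed between 0.35 and 0.48 in all 18 alternatives and passed in 13 of them.

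Of 9770 other genes with an average log2 CPM of at least 3, OSER1 and GBE1 were the nearest to SOD1 in their pattern over the 9 libraries. OSER1 is a gene named for its response to oxidative stress, and GBE1 encodes the glycogen branching enzyme. The root mean square difference of their centred log2 CPM from that of SOD1 was 0.0405 for OSER1 and 0.0550 for GBE1, beside a root mean square of 0.218 for SOD1 itself. The 9 libraries share the 3 groups, so any gene that differs between the groups in the same way would score as close.

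SOD2 encodes the manganese enzyme of the mitochondrial matrix and is known as a target of NF-kappaB (ENSG00000112096, chromosome 6, 159669057 to 159745186, minus strand). Its level was 58.1, 53.6 and 56.2 CPM in CDDO-Me 72 h, 56.0, 58.2 and 56.4 in CDDO-Me 24 h, and 49.5, 64.6 and 56.8 in DMSO. The DMSO libraries spanned all treated libraries. The log2 fold change over DMSO was -0.02 ± 0.10 at 72 h (adjusted p 0.926, 95% interval -0.23 to 0.18) and -0.00 ± 0.09 at 24 h (adjusted p 0.997). Of SOD2's 1044 coding bases, 643 (61.6%) also belong to a second protein-coding entry of the same symbol (ENSG00000285441), which held 7 counts in all, and some exon bases overlap WTAP on the other strand. Reads on bases that 2 genes share may have gone uncounted, and the kit keeps no strand, so the level of SOD2 is uncertain in every group. No other member shares an exon base with another gene.

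SOD3 encodes the secreted copper and zinc enzyme that binds heparan sulfate outside the cell (ENSG00000109610, protein-coding, chromosome 4, 24789912 to 24800842, plus strand). It had 30.7, 27.5 and 29.5 CPM in CDDO-Me 72 h, 56.2, 54.9 and 28.8 in CDDO-Me 24 h, and 34.6, 39.2 and 36.7 in DMSO. The 72 h libraries lay below every DMSO library, and of the 24 h libraries replicates 1 and 2 were above all others while replicate 3 was at the level of the 72 h libraries. With all 9 libraries no comparison passed. The log2 fold change over DMSO was -0.33 ± 0.21 at 72 h (adjusted p 0.443) and 0.33 ± 0.20 at 24 h (adjusted p 0.561), and between 72 h and 24 h it was -0.67 ± 0.21 (adjusted p 0.195).

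Without CDDO-Me 24 h replicate 3, SOD3 passed in all 3 comparisons. The log2 fold change was then -0.33 for 72 h over DMSO (adjusted p 0.0110), 0.59 for 24 h over DMSO (adjusted p 3.05e-04) and -0.92 for 72 h over 24 h (adjusted p 1.86e-06). This replicate is singled out here after its SOD3 level was seen, so these adjusted p are not separate support for a change. Leaving it out also raised the calls over all genes in all 3 comparisons. The 72 h log2 fold change is the same to 2 decimals as with all libraries, which share 1 estimate of spread. When only the CDDO-Me 72 h and DMSO libraries entered the fit, SOD3 was also lower at 72 h (adjusted p 0.0195), and between 72 h and 24 h it passed with DESeq2 (0.0187) and with no filter on low counts (9.67e-06).

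The nuclear-retained RNAs MALAT1, NEAT1, MEG3 and KCNQ1OT1 were read as a possible sign of RNA quality, which they do not measure directly. Their summed level was 147, 121 and 113 CPM in CDDO-Me 72 h, 295, 307 and 114 in CDDO-Me 24 h, and 276, 183 and 139 in DMSO. The 24 h libraries with high SOD3 and lower SOD1 were those with high retained RNA, and replicate 3 was near the 72 h libraries in all 3 measures. The DMSO libraries did not show this relation for SOD3. DMSO replicate 1 had the most retained RNA of its group and the lowest SOD3 (34.6 CPM, beside 39.2 and 36.7). In other measures CDDO-Me 24 h replicate 3 was not near the 72 h libraries. Its GPX1 was 151 CPM, beside 198 to 215 at 72 h, and its summed fibroblast markers 12663, beside 17354 to 17859. NQO1 was at most 2169 CPM in any 24 h library and at least 3306 in CDDO-Me 72 h. The part of these differences between libraries in the results for SOD1 and SOD3 was not tested.

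**Figure D2:**
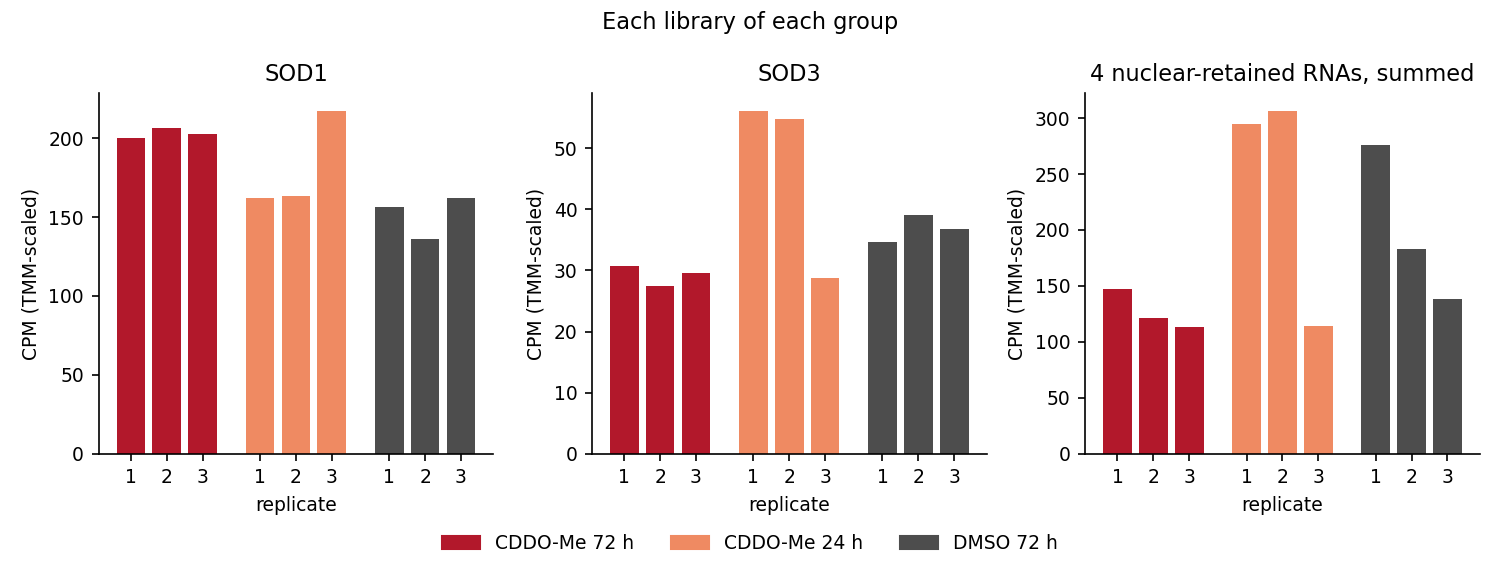
CPM of SOD1, of SOD3 and of the 4 nuclear-retained RNAs summed (bars from 0, 1 bar per library) in CDDO-Me 72 h, CDDO-Me 24 h and DMSO 72 h. CDDO-Me 24 h replicate 3 is at 217, 28.8 and 114 CPM, apart from replicates 1 and 2 of its group in each panel.

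**Figure D3:**
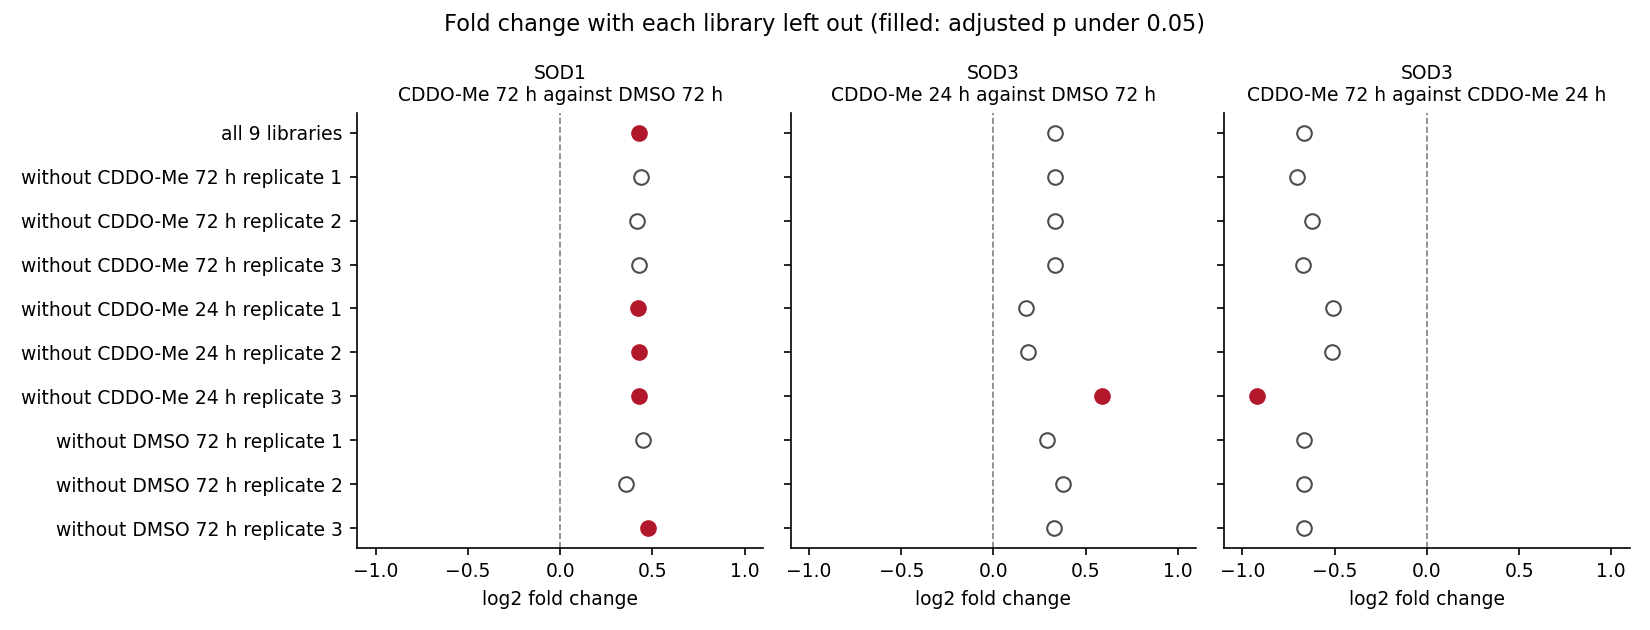
Log2 fold change of SOD1 (CDDO-Me 72 h over DMSO) and of SOD3 (CDDO-Me 24 h over DMSO, and CDDO-Me 72 h over 24 h) with all libraries and with each library left out; filled points have an adjusted p under 0.05. The SOD1 value stays near 0.43 while its call comes and goes, and SOD3 passes in the fit without CDDO-Me 24 h replicate 3, at 0.59 and -0.92.

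CAT encodes catalase (ENSG00000121691, protein-coding, chromosome 11, 34438925 to 34472062, plus strand). Its level was 36.6, 32.8 and 34.9 CPM in CDDO-Me 72 h, 28.1, 28.7 and 31.3 in CDDO-Me 24 h, and 28.2, 29.7 and 33.4 in DMSO. The 72 h libraries were above all 24 h libraries but overlapped DMSO replicate 3. The log2 fold change was 0.19 ± 0.10 for 72 h over DMSO (adjusted p 0.317), -0.05 ± 0.10 for 24 h over DMSO (adjusted p 0.882) and 0.24 ± 0.10 for 72 h over 24 h (adjusted p 0.306). No comparison of CAT passed, except that between 72 h and 24 h when CDDO-Me 24 h replicate 3 and DMSO replicate 1 were both left out (0.29, adjusted p 0.0166). The upper end of the 95% interval for 72 h over DMSO was a 1.32-fold increase.

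GPX1 encodes the abundant selenoenzyme of cytosol and mitochondria (ENSG00000233276, typed as a polymorphic pseudogene in GENCODE 29, chromosome 3, 49357171 to 49358600, minus strand). It had 205, 198 and 215 CPM in CDDO-Me 72 h, 203, 188 and 151 in CDDO-Me 24 h, and 209, 194 and 200.1 in DMSO. The groups overlapped, and the lowest library was CDDO-Me 24 h replicate 3. The log2 fold change over DMSO was 0.04 ± 0.10 at 72 h (adjusted p 0.887, 95% interval -0.17 to 0.24) and -0.15 ± 0.10 at 24 h (adjusted p 0.551). A processed copy on chromosome X, GPX1P1, held 164 to 279 counts per library, and reads may be split between it and GPX1.

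GPX3 encodes the selenoenzyme secreted into plasma (ENSG00000211445, protein-coding, chromosome 5, 151020438 to 151028993, plus strand). It was low, at 5.14, 4.78 and 4.86 CPM in CDDO-Me 72 h, 4.48, 2.63 and 6.10 in CDDO-Me 24 h, and 2.33, 3.54 and 3.58 in DMSO. The 72 h libraries lay above all DMSO libraries and close together, but the log2 fold change of 0.64 ± 0.27, the largest among the members at 72 h, did not pass (adjusted p 0.214). At 24 h the value was 0.50 ± 0.27 (adjusted p 0.496) and the groups overlapped.

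GPX2 encodes the selenoenzyme known from the gut epithelium and is known as an NRF2 target (ENSG00000176153, protein-coding, chromosome 14, 64939152 to 64942905, minus strand). It had 9, 1 and 2 counts in the CDDO-Me 72 h libraries, 0, 10 and 5 in CDDO-Me 24 h, and 0, 5 and 1 in DMSO, 33 in all. Of the 9 libraries, 5 were at 2 counts or fewer, each group spanned such a library and 1 with 5 counts or more, and GPX2 was not tested. The window from 250 bases before to 50 bases after the GPX2 start (chr14:64942696-64942995, minus strand, RefSeq, GRCh38.p14) is shown because it held a match to the core of the antioxidant response element, the site NRF2 binds.
GPX2 promoter: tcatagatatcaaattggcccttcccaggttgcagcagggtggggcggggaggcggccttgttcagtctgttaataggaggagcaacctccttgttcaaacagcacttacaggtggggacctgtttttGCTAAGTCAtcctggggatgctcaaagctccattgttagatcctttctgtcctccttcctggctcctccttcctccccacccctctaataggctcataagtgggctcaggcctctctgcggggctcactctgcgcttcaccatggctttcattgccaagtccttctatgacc
The capitals mark the match, TGACTTAGC on the reverse strand, at 122 to 114 bases before the start. The motif searched was TGACNNNGC on both strands, and 13.3% of 35116 windows of the same length, or 16.1% of 27305 genes, held it. Windows were found for all members other than SOD1, with 4 for SOD2, and of these 8 members GPX2 alone had a match. A match in these letters is a description of the sequence.

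GPX7 and GPX8 encode the cysteine peroxidases of the endoplasmic reticulum, which pass oxidizing equivalents from hydrogen peroxide to protein disulfide isomerases. GPX7 (ENSG00000116157, protein-coding, chromosome 1, 52602372 to 52609051, plus strand) had 6.73, 6.53 and 5.77 CPM in CDDO-Me 72 h, 5.30, 5.57 and 7.60 in CDDO-Me 24 h, and 4.81, 4.79 and 5.80 in DMSO. The highest DMSO library lay just above the lowest 72 h library, and the log2 fold change over DMSO was 0.30 ± 0.19 at 72 h (adjusted p 0.419) and 0.27 ± 0.18 at 24 h (adjusted p 0.605). GPX8 (ENSG00000164294, protein-coding, chromosome 5, 55160118 to 55167071, plus strand) had 105, 110.1 and 106 CPM in CDDO-Me 72 h, 100.4, 109 and 98.2 in CDDO-Me 24 h, and 103, 105 and 122 in DMSO. Its groups overlapped, and its log2 fold change had the narrowest 95% interval of the members at 72 h, -0.22 to 0.14 around -0.04 ± 0.08 (adjusted p 0.853), with -0.10 ± 0.08 at 24 h (adjusted p 0.675).

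Without any overlap of their libraries, 3 of the 8 genes lay apart from DMSO at 72 h (SOD1 and GPX3 above, SOD3 below), where 30.7% of all tested genes did so (15.5% above, 15.2% below). At 24 h 1 of the 8 lay above DMSO (SOD1, whose nearest libraries were at 162.25 and 162.05 CPM), where 13.5% lay apart (6.73% above, 6.74% below). Between 72 h and 24 h 1 of the 8 lay apart (CAT, higher at 72 h), where 21% did (10.8% above, 10.2% below). Between 72 h and 24 h of CDDO-Me, the genes not yet given had log2 fold changes of -0.02 ± 0.10 for SOD2, 0.19 ± 0.10 for GPX1, 0.15 ± 0.27 for GPX3, 0.03 ± 0.18 for GPX7 and 0.06 ± 0.08 for GPX8, with adjusted p of 0.413 to 0.958.

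**Figure D4:**
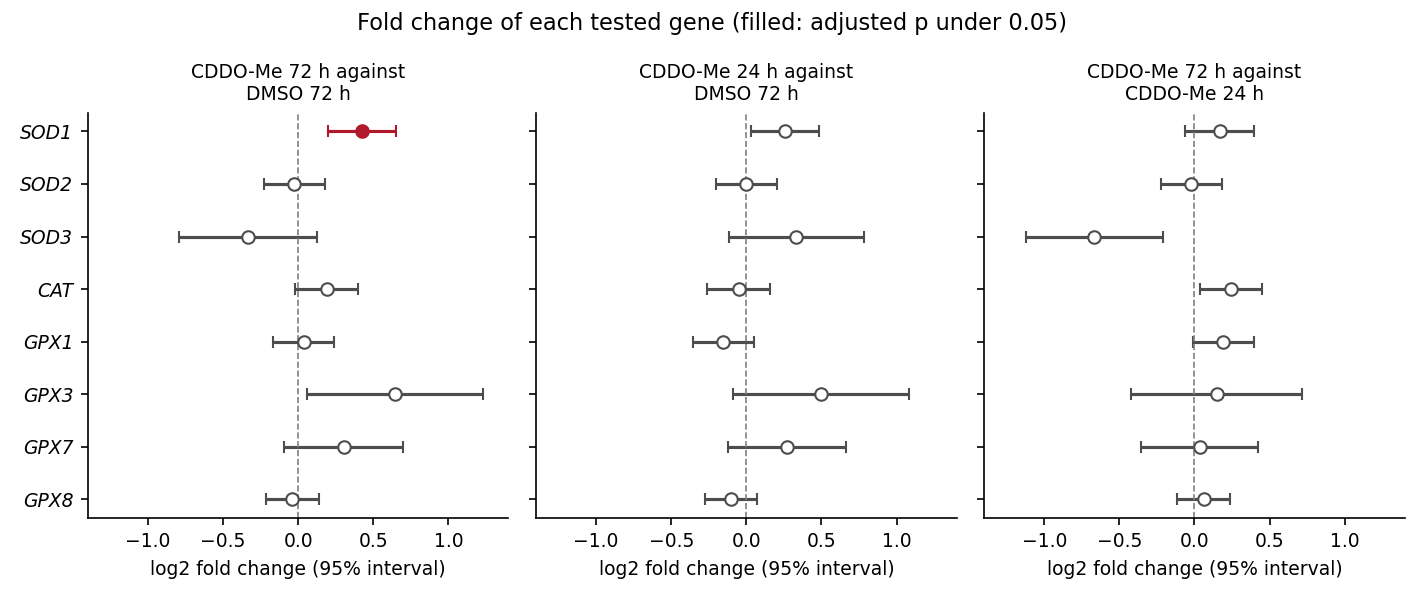
Log2 fold change of the 8 tested genes with 95% intervals, for CDDO-Me 72 h over DMSO, CDDO-Me 24 h over DMSO and CDDO-Me 72 h over 24 h; the filled point has an adjusted p under 0.05. SOD1 at 72 h (0.43, 0.20 to 0.65) is the 1 filled point, and the intervals of SOD3 and GPX3 are the widest.

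Levels per transcript length, in TPM (shares of all transcripts after division by length) from the counts and the exon length in the deposited table, set the genes in order. The exon length of SOD2 was 16493 bases, against 1430 to 3868 for the other members, and its low rank in TPM rests on that length. By CPM in CDDO-Me 72 h, SOD2 (56.0) lay above CAT (34.8) and SOD3 (29.2). In CDDO-Me 72 h GPX1 came first, at 602 ± 22.3 TPM, above 98.7% of tested genes, followed by SOD1 (421 ± 6.87), GPX8 (116 ± 3.01), SOD3 (57.4 ± 3.21), CAT (43.4 ± 2.38), GPX7 (15.7 ± 1.31), SOD2 (14.2 ± 0.574), GPX3 (6.50 ± 0.258) and GPX2 (0.554 ± 0.579; SD, n = 3 each). The libraries of GPX7 and SOD2 overlapped and those of the other neighbours did not. In CDDO-Me 24 h the order was the same, with GPX1 at 558 ± 97.6, SOD1 at 393 ± 54.4, GPX8 at 117 ± 10.5 and SOD3 at 97.2 ± 34.5 TPM, and there the ranges of GPX1 and SOD1, of GPX8 and SOD3, and of GPX7 and SOD2 overlapped. In DMSO GPX1 was at 618 ± 17.1, SOD1 at 330 ± 28.3, GPX8 at 125 ± 13.0, SOD3 at 76.2 ± 5.55 and CAT at 40.1 ± 3.84 TPM, and SOD2 (15.2 ± 2.18) and GPX7 (13.4 ± 1.58) overlapped.

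**Figure D5:**
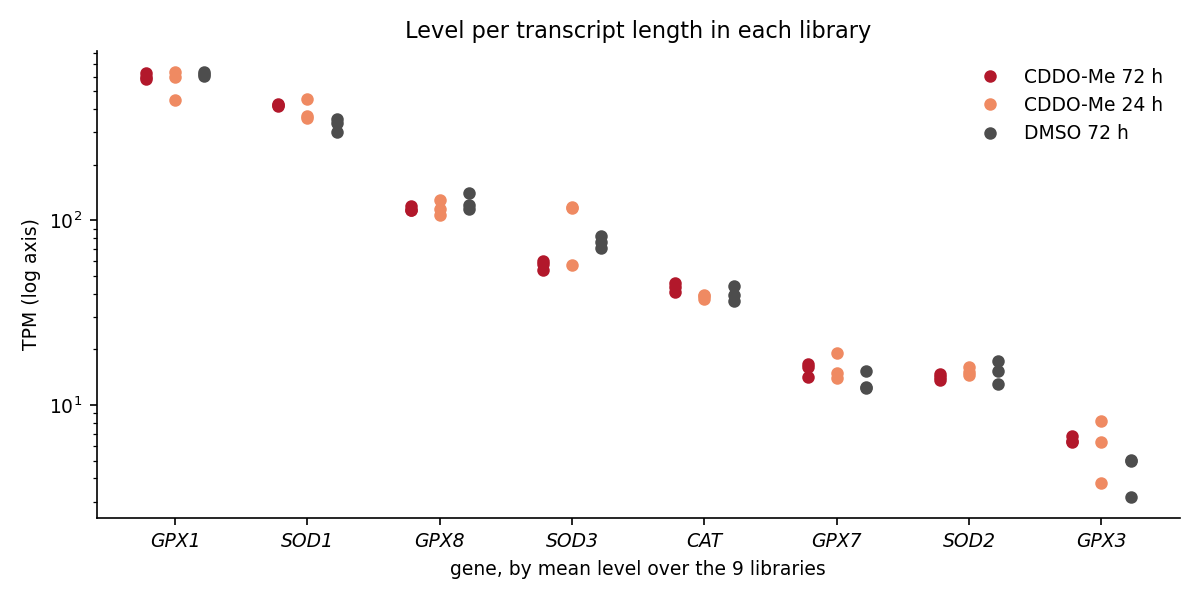
TPM of each tested gene on a log axis, genes ordered by their mean over the 9 libraries, with 1 point per library for CDDO-Me 72 h, CDDO-Me 24 h and DMSO 72 h. GPX1 and SOD1 lead in every group, GPX7 and SOD2 overlap, and GPX2, whose libraries include counts of 0, is not drawn.

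Among the members of each family the makeup followed from these levels. The summed TPM of the superoxide dismutases was 491, 496 and 490.4 in CDDO-Me 72 h, 489.5, 499.6 and 528 in CDDO-Me 24 h, and 419, 398 and 447 in DMSO, so that all treated libraries lay above all DMSO libraries. Of single tested genes, by CPM, 15.5% lay above every DMSO library at 72 h and 6.73% at 24 h. The summed TPM is mostly SOD1, which made up 85.5 ± 0.852% of it in CDDO-Me 72 h, 77.6 ± 7.63% in CDDO-Me 24 h and 78.2 ± 2.69% in DMSO. SOD3 made up 11.7 ± 0.720%, 19.4 ± 7.40% and 18.2 ± 2.05% in the same groups. The sum of the 5 glutathione peroxidases was 740.3 ± 18.7 TPM in CDDO-Me 72 h, 698 ± 100.5 in CDDO-Me 24 h and 762 ± 20.01 in DMSO. GPX1 held 81.3 ± 0.955% of that sum in CDDO-Me 72 h, 79.7 ± 2.78% in CDDO-Me 24 h and 81.2 ± 1.75% in DMSO, and GPX8 most of the rest. The sum of the superoxide dismutases rests on the uncertain level of SOD2 and on its long exon length, and neither family's sum was tested.

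Other genes around these enzymes were read from lists by role. Counts of any list without CDDO-Me 24 h replicate 3 were not planned. Calls over all genes also rose in that fit, as given in the last section, so a higher list count there is not particular to the list. In CDDO-Me 72 h against DMSO, 5 of 6 tested genes that supply, reduce or use glutathione, the cosubstrate of the selenium peroxidases, rose. SLC7A11, the cystine transporter, rose by 2.91 ± 0.43 on the log2 scale (adjusted p 0.0105), GCLM, the modifier subunit of glutamate-cysteine ligase, by 1.95 ± 0.32 (adjusted p 0.0139), GSR, glutathione reductase, by 1.32 ± 0.27 (adjusted p 0.0328) and GSS, glutathione synthetase, by 0.32 ± 0.08 (adjusted p 0.0261). GLRX, glutaredoxin, named to complete the count after its value was seen, rose by 0.42 ± 0.12 (adjusted p 0.0496). The list's median log2 fold change was 1.04, beside -0.00 over all tested genes. The count was 6 without CDDO-Me 24 h replicate 3, 2 without DMSO replicate 1 or 2, and 1 without any 1 of the 72 h libraries, where SLC7A11 was the gene that passed.

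At 24 h against DMSO, 1 of the 6 glutathione genes passed, SLC7A11 (2.51 ± 0.43, adjusted p 0.0352), with a list median of 0.94. That call ended with only the groups compared (adjusted p 0.172), with no filter on low counts (0.0651), and on leaving out any single DMSO library (0.100 to 0.125) or 72 h library (0.0777 to 0.0820). Without CDDO-Me 24 h replicate 3 its log2 fold change was 1.84 (adjusted p 2.83e-10) and 4 genes passed, and 4 did with DESeq2. Between 72 h and 24 h 0 of 6 passed with edgeR, DESeq2 or limma-voom, with 1 at an unadjusted p under 0.05, and 4 passed without that replicate.

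Among the peroxidases outside the 9 genes, PRDX1, a cytosolic peroxiredoxin, averaged 537 ± 4.58 CPM in CDDO-Me 72 h, 450 ± 86.5 in CDDO-Me 24 h and 346 ± 27.7 in DMSO. Its log2 fold change at 72 h was 0.63 ± 0.11 (adjusted p 0.00314) and it passed in all 18 alternatives, as 1 of 6 tested peroxiredoxins (2 without CDDO-Me 24 h replicate 3). At 24 h against DMSO 0 of 6 passed with edgeR or limma-voom and 1 with DESeq2, with 1 at an unadjusted p under 0.05. GPX4, which reduces lipid peroxides in membranes, averaged 173 ± 6.99 CPM in CDDO-Me 72 h, 143 ± 14.7 in CDDO-Me 24 h and 140 ± 10.6 in DMSO. Its log2 fold change at 72 h was 0.31 ± 0.09 (adjusted p 0.0496), and the call ended in 9 of 18 alternatives, among them each that left out a DMSO library, a 72 h library or CDDO-Me 24 h replicate 2 (adjusted p 0.0555 to 0.213). GPX5 and GPX6 had no count in any library.

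Selenium handling gave few calls. In CDDO-Me 72 h against DMSO, 1 of 14 tested selenoproteins outside the glutathione peroxidases rose, TXNRD1, thioredoxin reductase 1 (1.77 ± 0.36, adjusted p 0.0319), and that call was lost on leaving out any single DMSO or 72 h library (adjusted p 0.0742 to 0.111). The list's median was 0.05, and without CDDO-Me 24 h replicate 3 the counts were 4 higher and 1 lower. At 24 h against DMSO 0 of 14 passed with edgeR or limma-voom, and 1 higher and 1 lower with DESeq2, with 2 at an unadjusted p under 0.05. Of 8 genes that make or insert selenocysteine, 0 passed with edgeR, DESeq2 or limma-voom in any comparison, with 1 at an unadjusted p under 0.05 at 72 h and 1 at 24 h against DMSO, and 1 rose at 72 h without CDDO-Me 24 h replicate 3.

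NF-kappaB targets, read because the factor is known to raise SOD2, were lower in 3 of 10 tested genes at 72 h against DMSO, with a list median of -0.46. These were TNFAIP3, an inhibitor of the pathway (-0.76 ± 0.18, adjusted p 0.0254), ICAM1, an adhesion molecule (-0.55 ± 0.15, adjusted p 0.0409), and BIRC3, an inhibitor of apoptosis (-1.03 ± 0.28, adjusted p 0.0433). The count was 0 on leaving out DMSO replicate 1 or 2, or replicate 2 or 3 of CDDO-Me 72 h. It was 1 on leaving out DMSO replicate 3, or replicate 1 of CDDO-Me 72 h. It was 2 without replicate 2 of CDDO-Me 24 h and 4 without its replicate 3. Over the same comparison the median log2 fold change was -0.58 for the 4 tested endothelial and immune markers and -0.68 for the nuclear-retained RNAs, and their part in the result for NF-kappaB targets was not tested. At 24 h against DMSO 0 of 10 passed with edgeR, 2 with DESeq2 and 1 with limma-voom, with 3 at an unadjusted p under 0.05.

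The lists for copper supply (4 tested genes), peroxisome import (13), sources of superoxide and peroxide (7), oxidative folding (7) and FOXO factors (3) gave 0 calls in any comparison with edgeR, DESeq2 or limma-voom. At an unadjusted p under 0.05 and 72 h against DMSO they held 0, 3, 0, 2 and 1 genes, in that order, and at 24 h against DMSO 1, 2, 0, 2 and 1. Without CDDO-Me 24 h replicate 3, 1 peroxisome import gene was higher and oxidative folding held 1 higher and 1 lower at 72 h, 1 copper supply gene and 1 source gene were higher at 24 h, and between 72 h and 24 h 1 peroxisome import gene and 2 source genes passed. Of the NRF2 check list, HMOX1, heme oxygenase 1, was at 5.10 ± 0.72 at 72 h (adjusted p 0.0106) and 3.71 ± 0.68 at 24 h (adjusted p 0.0557), and SRXN1, sulfiredoxin, at 1.93 ± 0.46 (adjusted p 0.0564) and 1.72 ± 0.46 (adjusted p 0.143). In CDDO-Me 24 h HMOX1 ranged from 146 to 645 CPM, and without replicate 3 of that group the 24 h values were 2.61 for HMOX1 (adjusted p 3.44e-13) and 1.05 for SRXN1 (adjusted p 0.00628). NQO1 had 2.90 ± 0.11 and 2.06 ± 0.10 at those times and passed at both. GCLM, counted above with the glutathione genes, is also in this check list, so the counts of these lists are not separate. At 24 h GCLM was at 1.53 ± 0.31 (adjusted p 0.0667).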

How the data were processed

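Polyadenylated RNA of 9 AC16 samples was made into unstranded libraries with the TruSeq RNA v2 kit, per the labels' protocols. Raw read counts for each Ensembl gene, whole numbers with no scaling, were deposited by the authors together with the length of each gene's exons. The tools named in the submitters' processing notes are featureCounts, Subread, STAR and SAMtools, with hg38 and GRCh38 as builds. Not given in the sources used here are versions, annotation release and how strand, shared exons and reads with several matches were handled. Titles and design text write CDDO where the treatment label has CDDO-Me, and the treatment label was followed. Of 58299 IDs, 58179 were named from GENCODE 29, and gene coordinates are those of the table.

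Counts were tested with edgeR 4.0.16 (R 4.3.3; trimmed mean of M values, filterByExpr, robust quasi-likelihood) in 1 fit of 9 libraries with 6 residual degrees of freedom, over 14965 genes, which held 99.9% of counts in every library, with Benjamini-Hochberg adjustment over them. The common biological coefficient of variation was 11.5%. The SE was taken as the absolute log2 fold change divided by the root of its F statistic. CPM values use the scaled library sizes. TPM was computed from counts and length. Alternatives used DESeq2 1.42.0, limma-voom (limma 3.58.1), other scalings, filters and subsets of libraries, and a replicate block. The test was tried on simulated data, and the outcome is not given here. No columns were identical, and replicates of a group differed beyond sampling noise, with a chi-square per degree of freedom of 2.09 or more for every pair.

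The members and lists were chosen with earlier results of these data known. All members are named; from each other list up to 4 genes that passed, by adjusted p at 72 h, and the NRF2 check list whole; and the 3 genes most like a member that passed, of which 1 is not reported here.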

Additional observations from a re-analysis of the deposited data

Results flagged for a closer look

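The test of CDDO-Me 72 h against 24 h compares the 2 treated groups. With no DMSO library of 24 h, it cannot tell length of treatment and culture time apart. The test passed for 2 of the genes named above, neither of them a superoxide dismutase, catalase or glutathione peroxidase. NQO1 was higher at 72 h than at 24 h by a log2 fold change of 0.83 ± 0.10 (adjusted p 9.92e-04), at 3306 to 3386 CPM in CDDO-Me 72 h and 1686 to 2169 in CDDO-Me 24 h. ICAM1 was lower at 72 h than at 24 h, with a log2 fold change of -0.72 ± 0.15 (adjusted p 0.0330), at 16.1 to 19.1 CPM in CDDO-Me 72 h and 22.1 to 35.8 in CDDO-Me 24 h.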

How the results depend on the processing

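No member's log2 fold change that passed in any fit had the opposite sign in another. Members called at 24 h against DMSO were 0 to 1 on leaving out 1 library, and 1 without both libraries that stand apart (CDDO-Me 24 h replicate 3 and DMSO replicate 1), against 0 in the reported fit. At 72 h against DMSO they were 0 to 2 on leaving out 1 library, 2 with only the groups compared and 2 without both libraries, against 1. Between 72 h and 24 h they were 0 to 2 on leaving out 1 library, 1 with no filter, 1 with DESeq2 and 3 without both libraries, against 0. Over all genes, calls at 24 h against DMSO were 321 as reported, 662 with no filter, 546 with DESeq2, 100 with only the groups compared, 3464 without both libraries and 134 to 1657 on leaving out 1 library. At 72 h against DMSO they were 901 as reported, 1776 with only the groups compared, 2724 without both libraries and 401 to 1972 on leaving out 1 library. Between 72 h and 24 h they were 152 as reported, 507 with no filter, 394 with DESeq2, 3471 without both libraries and 32 to 1843 on leaving out 1 library. The highest counts on leaving out 1 library came without CDDO-Me 24 h replicate 3. The cause was not tested. With the replicate block, 0, 1 and 0 members and 358, 963 and 219 genes passed (24 h against DMSO, 72 h against DMSO, 72 h against 24 h), and the calls of GSR and TXNRD1 at 72 h and of SLC7A11 at 24 h ended (adjusted p 0.0773, 0.0821 and 0.125). Libraries of the same number correlated by -0.018 to 0.096 in their deviations from the group means, and libraries of unlike number by -0.138 to 0.034. The highest values, 0.096 and 0.084, were of the same number. Whether the numbers mark a pairing cannot be told from values this small. Depth limits GPX2, with 33 counts in all.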
